A study of Mus musculus with 16 samples.

Results

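Mt1, Mt2, Mtf1, Slc30a1, Slc39a10 and Hmox1, the 6 genes described here, make up a small set of metal-handling and stress-responsive genes: a pair of metallothioneins, the zinc sensor that drives them, a zinc exporter, a zinc importer and the haem-degrading enzyme haem oxygenase. They were taken by gene name from a count table of 55335 gene identifiers, and all 6 were among the 15197 genes with enough reads to be tested. They were chosen on measured values, namely their CPM (a gene's reads per 1000000 reads counted in that library) in wild-type and Batf3 ko libraries at 48 h and 72 h. The comparisons of ko with wild type, and the difference of those comparisons between the times, are therefore given for these genes as a description without a test. Their change from 48 h to 72 h within a genotype was tested. The genes were picked with results from the same libraries known, so those p-values are no independent support for a change.

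The libraries came from CD8 T cells of mice on the C57BL/6 strain, either wild type or lacking the transcription factor Batf3 (ko). CD8 T cells are lymphocytes that destroy infected or transformed cells. Spleen cells enriched for them were kept for 48 h or 72 h with IL-15 at 50 ng/ml, plate-bound antibody to CD3e at 1 µg/ml and antibody to CD28 at 1 µg/ml. Every group was thus stimulated through the T cell receptor, and no resting cells are compared here. There were 4 libraries in each of the 4 groups, wild type 48 h, ko 48 h, wild type 72 h and ko 72 h. Within a group the libraries are described by the submitters as technical replicates. Standard deviations (SD) and p-values therefore reflect how far such libraries scatter, not how far animals do. The sources used here do not give the number, sex or age of the animals.

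Metallothioneins are small, cysteine-rich proteins that bind zinc and copper and buffer the free metal in the cytosol. When free zinc rises, the zinc-finger factor MTF-1, encoded by Mtf1, binds metal response elements in the promoters of Mt1, Mt2 and Slc30a1 and raises their transcription. Glucocorticoids and oxidative stress can also raise metallothionein transcripts. Exporters of the Slc30a family move zinc out of the cytosol, importers of the Slc39a family move it in, and zinc entry takes part in signalling after T cell receptor engagement. Hmox1 is held down by the haem-binding repressor BACH1 and switched on by NRF2, the main regulator of the oxidative stress response, and metals can raise it too.

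Library totals ran from 29375818 to 39241169 counts. Batf3 had means of 80.7 ± 5.86 and 30.9 ± 2.65 CPM in wild type (48 h and 72 h, SD, n = 4 each) and of 0.129 ± 0.0658 and 0.0916 ± 0.183 CPM in ko, so the libraries carried the genotype of their labels. The root mean square log2 difference of a library from the other 3 of its group was taken over 9191 expressed genes. It was 0.234 in replicate 4 of ko 48 h and 0.218 in replicate 4 of wild type 72 h. The remaining libraries had 0.109 to 0.163. CD8 T cell markers summed to 2166 to 3043 CPM over all libraries. Fold changes from the model used scaled library sizes, and CPM did not: at 72 h, taking library totals without that scaling moved the median log2 fold change of all genes between ko and wild type by -0.13.

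Promoter sequences of Mt1, Mt2 and Slc30a1 are shown because these are the genes named above as raised by MTF-1. Both metallothioneins also rose from 48 h to 72 h in each genotype. Each line gives the 250 bases before the start of the gene in RefSeq (GRCm38.p6, plus strand, 5′ to 3′), and capitals mark every match to the core of the metal response element, searched on both strands as TGCGCNC and TGCACNC. The windows were chr8:94178839-94179088 for Mt1, chr8:94172368-94172617 for Mt2 and chr1:191906531-191906780 for Slc30a1.
Mt1: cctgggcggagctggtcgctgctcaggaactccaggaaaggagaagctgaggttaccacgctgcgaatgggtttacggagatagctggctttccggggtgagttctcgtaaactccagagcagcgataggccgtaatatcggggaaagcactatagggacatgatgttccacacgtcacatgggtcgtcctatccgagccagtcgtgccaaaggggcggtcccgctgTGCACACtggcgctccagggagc
Mt2: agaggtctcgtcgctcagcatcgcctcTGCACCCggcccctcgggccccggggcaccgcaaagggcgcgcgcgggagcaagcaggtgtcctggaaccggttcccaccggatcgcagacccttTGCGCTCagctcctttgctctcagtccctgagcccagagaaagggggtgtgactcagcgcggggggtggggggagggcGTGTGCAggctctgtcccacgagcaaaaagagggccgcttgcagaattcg
Slc30a1: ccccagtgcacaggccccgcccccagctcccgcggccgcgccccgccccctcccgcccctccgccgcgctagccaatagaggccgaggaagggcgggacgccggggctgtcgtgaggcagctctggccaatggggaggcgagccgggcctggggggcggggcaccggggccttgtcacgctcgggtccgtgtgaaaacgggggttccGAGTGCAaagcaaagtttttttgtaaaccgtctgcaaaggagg
The Mt2 window held 3 matches, beginning at -223, -128 and -50 from the start, and the Mt1 window held 1, at -23. The Slc30a1 window held 1, at -43. The Mtf1 window, chr4:124802299-124802548, held none. It lies after the start of Mtf1 in GENCODE, at 124802104 on the plus strand, so the bases before that start were not searched. Slc39a10 had 2 RefSeq entries, with windows at chr1:46853619-46853868 and chr1:46925777-46926026, and neither held a match. Neither window adjoins the start of Slc39a10 in GENCODE, at 46892852 on the minus strand, so the bases before that start were not searched. Over 32851 RefSeq promoter windows of the same length, 21.4% held at least 1 match and 1.26% held at least 3, so a single match is common. With the 50 bases after the start added, the matches numbered 3 in Mt1, 4 in Mt2 and 2 in Slc30a1, and 1.97% of all such windows held at least 3. The number of matches, that of Mt1 above all, thus depended on where the window ended. A match describes the letters of the window and does not show that a factor binds there.

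Coding sequences of Mt1 and Mt2 are given next, since the pair arose from a shared ancestor and counts of similar genes can be mixed. They are the protein-coding bases of the GENCODE M21 transcripts (GRCm38), from start to stop codon, with cysteine codons in capitals.
Mt1: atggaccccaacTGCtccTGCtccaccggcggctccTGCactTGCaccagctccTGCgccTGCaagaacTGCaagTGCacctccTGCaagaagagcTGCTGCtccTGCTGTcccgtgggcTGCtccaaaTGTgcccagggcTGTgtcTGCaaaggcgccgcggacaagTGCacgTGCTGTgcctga
Mt2: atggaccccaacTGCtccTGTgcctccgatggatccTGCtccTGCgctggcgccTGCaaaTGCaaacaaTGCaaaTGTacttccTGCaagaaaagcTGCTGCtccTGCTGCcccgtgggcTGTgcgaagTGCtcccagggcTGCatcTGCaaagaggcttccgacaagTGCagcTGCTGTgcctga
Each had 61 amino acid codons, of which 20 coded for cysteine, and all 20 stood at the same place in both. The sequences agreed at 148 of 186 bases (79.6%), with a longest shared run of 20 bases. None of the 500 stretches of 50 bases in the Mt1 transcript occurred in the Mt2 transcript (0 shared). An exact read of that length would thus not match both of these transcripts. Inexact matches and other places in the genome were not searched. The sources used here give neither the read length nor the handling of multiply matching reads.

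Mt1 (ENSMUSG00000031765, chr8:94179082-94180327, plus strand, GRCm38) lay 5514 bases from Mt2 and was the most abundant of the set in CPM at 72 h. Its transcript was lower at 48 h than at 72 h in both genotypes, and its 72 h level was higher in ko cells. In wild type at 48 h its level was 31.2, 34.7, 39.04 and 34.8 CPM in replicates 1 to 4, and in ko 27.6, 34.3, 32.8 and 20.5 CPM. At 72 h it was 130.6, 117.9, 123.4 and 99.2 CPM in wild type and 201.8, 214.4, 198.6 and 176.8 CPM in ko. The genotypes overlapped at 48 h, where ko replicate 4 was the lowest library, and were fully separate at 72 h, with every ko library above every wild-type library. The means were 34.9 ± 3.19 and 28.8 ± 6.20 CPM at 48 h and 117.8 ± 13.5 and 197.9 ± 15.6 CPM at 72 h (wild type and ko, SD, n = 4 each).

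From 48 h to 72 h Mt1 rose in wild type by a log2 fold change of 1.72 (SE 0.12, 3.30-fold, edgeR adjusted p = 1.85e-10). In ko it rose by 2.84 (SE 0.13, 7.16-fold, edgeR adjusted p = 9.15e-14). All 4 libraries at 72 h were above all 4 at 48 h in each genotype. Among all tested genes 33.6% were called higher and 29.9% lower with time in wild type, and 34.4% higher and 33.6% lower in ko, so a call alone was common. The size of the Mt1 change ranked 734th from the highest of 15197 genes in wild type and 220th in ko. As a description, its ko to wild-type log2 fold change was -0.24 (SE 0.12) at 48 h and 0.88 (SE 0.12) at 72 h, a difference between the times of 1.11 (SE 0.17). Among all genes 4.41% were called higher and 2.66% lower in ko at 48 h, and 16.9% higher and 19.5% lower at 72 h. For the interaction of genotype and time 2.08% had a positive and 3.53% a negative call. With replicate 4 of ko 48 h and of wild type 72 h left out together, the 48 h value was -0.09. Of these libraries only ko 48 h replicate 4 is among those compared at 48 h, so the size of the 48 h value rested in part on it.

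**Figure D1:**
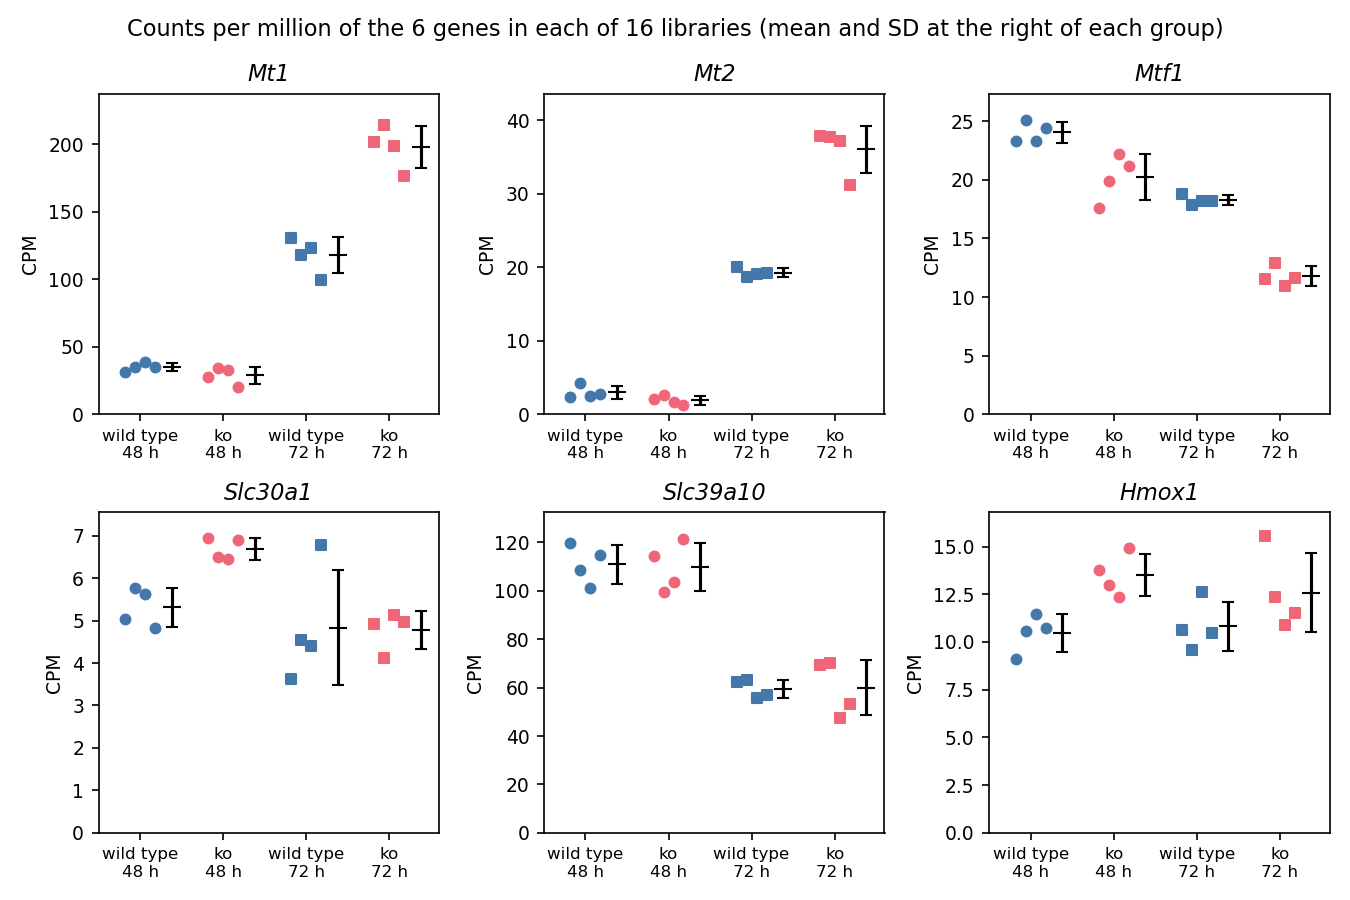
CPM of each of the 6 genes (vertical axis, linear from 0) in the 16 libraries by group; points are libraries (circles 48 h, squares 72 h, blue wild type, red ko), and the bar at the right of each group is the mean with its SD. Mt1 and Mt2 are lowest at 48 h and highest in ko at 72 h, Slc39a10 is lower at 72 h than at 48 h in both genotypes, and for Hmox1 the libraries of the 2 times overlap in each genotype.

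Mt2 (ENSMUSG00000031762, chr8:94172664-94173568, plus strand), the second widely expressed metallothionein, showed the same order of groups at a lower level and with a larger range, 30.8-fold between the lowest and highest library against 10.4-fold for Mt1. In wild type at 48 h it had 2.37, 4.28, 2.52 and 2.701 CPM in replicates 1 to 4, and in ko 2.08, 2.63, 1.67 and 1.23 CPM. The 72 h levels were 20.1, 18.7, 19.1 and 19.2 CPM in wild type and 37.9, 37.8, 37.2 and 31.2 CPM in ko. The 48 h groups overlapped, with 3 of 4 ko libraries below all wild-type libraries, whereas at 72 h every ko library was above every wild-type library. Counts were small at 48 h, from 39 reads in ko replicate 4 to 141 reads in wild type replicate 2, and reached 1311 reads at 72 h.

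The mean of Mt2 was 2.97 ± 0.885 and 1.90 ± 0.594 CPM at 48 h and 19.3 ± 0.586 and 36.0 ± 3.24 CPM at 72 h (wild type and ko, SD, n = 4 each). Between the times Mt2 rose in wild type by a log2 fold change of 2.68 (SE 0.16, 6.42-fold, edgeR adjusted p = 1.16e-12) and in ko by 4.30 (SE 0.17, 19.7-fold, edgeR adjusted p = 6.22e-16). The ko change was the 43rd highest of the 15197 tested genes and the wild-type change the 235th. The ko to wild-type log2 fold change, given without a test, was -0.59 (SE 0.19) at 48 h and 1.03 (SE 0.14) at 72 h, a difference between the times of 1.62 (SE 0.24). Leaving out wild type 48 h replicate 2, the highest library of its group, brought the 48 h value to -0.37.

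Fold changes in these libraries went with the exon length of genes. Genes under 1000 exon bases, among them Mt2 with 588, had a median ko to wild-type log2 fold change of 0.18 at 48 h and 0.23 at 72 h, and genes of 5000 bases and over, among them Mtf1 with 8907, had -0.06 and -0.12. With offsets that remove the trend of each library with exon length, the 72 h value was 0.79 for Mt2, 0.73 for Mt1 and -0.38 for Mtf1.

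**Figure D2:**
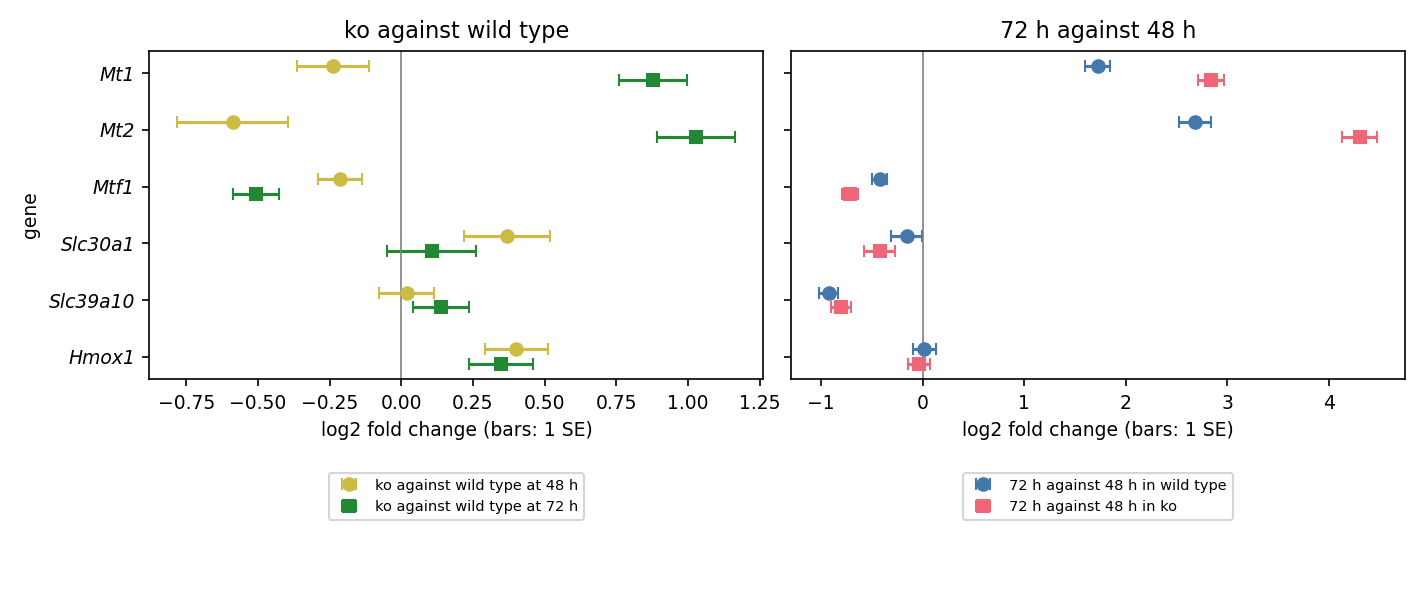
Model log2 fold changes (horizontal axis, with bars of 1 SE) of the 6 genes (vertical axis): ko against wild type on the left at 48 h (circles) and 72 h (squares), and 72 h against 48 h on the right in wild type (circles) and ko (squares). Mt1 and Mt2 lie below 0 at 48 h and above 0 at 72 h on the left, and far to the right of the other genes on the right; the left panel shows the comparisons used to choose the genes and has no test.

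The balance within the metallothionein pair shifted with time. Mt1 counts per Mt2 count were 13.2, 8.11, 15.5 and 12.9 in wild type and 13.3, 13.0, 19.7 and 16.7 in ko at 48 h, and 6.50, 6.31, 6.45 and 5.17 in wild type and 5.32, 5.67, 5.34 and 5.67 in ko at 72 h. Every library at 72 h had fewer Mt1 counts per Mt2 count than every library at 48 h, and the genotypes overlapped at each time. The group means were 12.4 ± 3.11, 15.7 ± 3.13, 6.11 ± 0.633 and 5.50 ± 0.197 (wild type 48 h, ko 48 h, wild type 72 h and ko 72 h, SD, n = 4 each). Per kilobase of the principal transcript, 549 bases for Mt1 and 511 for Mt2, Mt2 made up 8.35 ± 2.29% and 6.58 ± 1.17% of the pair at 48 h and 15.1 ± 1.45% and 16.4 ± 0.490% at 72 h (wild type and ko, SD, n = 4 each). The exon union of Mt1 was 1246 bases, so per kilobase of exon union Mt1 exceeded Mt2 less, 5.86-fold and 7.40-fold at 48 h and 2.88-fold and 2.60-fold at 72 h in wild type and ko.

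**Figure D3:**
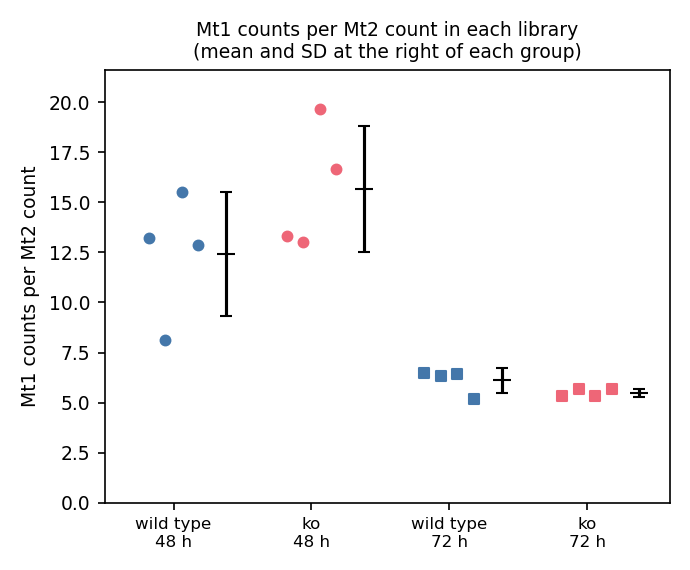
Mt1 counts per Mt2 count (vertical axis, linear from 0) in each of the 16 libraries by group; points are libraries and the bar at the right of each group is the mean with its SD. The 48 h libraries lie between 8.11 and 19.7 and the 72 h libraries between 5.17 and 6.50.

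Mt3, a metallothionein best known from brain, was also detected, at 0.554 ± 0.251 and 0.449 ± 0.150 CPM at 48 h and 1.33 ± 0.225 and 1.25 ± 0.368 CPM at 72 h (wild type and ko, SD, n = 4 each). It rose with time by a log2 fold change of 1.21 (SE 0.33, edgeR adjusted p = 0.00242) in wild type and 1.53 (SE 0.34, edgeR adjusted p = 0.000340) in ko. Its ko to wild-type log2 fold change was -0.27 (SE 0.36, edgeR adjusted p = 0.711) at 48 h and 0.04 (SE 0.31, edgeR adjusted p = 0.940) at 72 h, so the higher level seen for Mt1 and Mt2 in ko at 72 h was not detected for Mt3 at its depth. Mt4 was not among the tested genes. Of the 7 tested genes within 200 kb of Mt1, Mt2 not counted, 2 were called higher and 2 lower in ko at 72 h, with 16.9% and 19.5% of all genes called. The higher calls fell to 0 under library totals without scaling and to 1 with exon length offsets, and the lower calls to 1 with those offsets or without ko 72 h replicate 2.

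In bulk libraries a change in the number of cells of a type and a change of RNA per cell cannot be told apart. Macrophages and related cells can hold much metallothionein and Hmox1. The summed level of 20 macrophage, monocyte and granulocyte markers rose with time as Mt1 and Mt2 did and was higher in ko at both times. It was 8.49 to 10.9 CPM in wild type and 13.3 to 16.7 CPM in ko at 48 h, and 25.9 to 32.8 CPM in wild type and 52.7 to 58.9 CPM in ko at 72 h. Nearly all of that sum was Ccr2 and Cd68, and only 2 of the 20 markers had enough reads to be tested. Of these 2, 1 had a ko to wild-type log2 fold change above 0 at 48 h and 2 had it at 72 h. The other 18 markers together had 0.120 ± 0.0838, 0.241 ± 0.0880, 0.377 ± 0.128 and 1.29 ± 0.472 CPM (wild type 48 h, ko 48 h, wild type 72 h and ko 72 h, SD, n = 4 each), and Adgre1, C1qc, Mertk, S100a8, S100a9 and Elane were at 0 in all 16 libraries. Among 8 dendritic cell markers, H2-Ab1 made up most of a sum that went from 14.4 ± 1.44 CPM in wild type at 48 h to 112.8 ± 7.03 CPM in ko at 72 h (SD, n = 4 each), while Clec9a, Siglech and Cd209a were at 0. Without H2-Ab1 the other 7 had 4.03 ± 0.368, 4.32 ± 0.595, 5.535 ± 0.3555 and 4.905 ± 0.641 CPM (wild type 48 h, ko 48 h, wild type 72 h and ko 72 h, SD, n = 4 each). Summed B cell markers without Ighm (9 genes; 254.0 to 324.8 CPM as group means with it) had 6.64 ± 0.579, 7.08 ± 0.790, 9.48 ± 1.91 and 9.67 ± 0.415 CPM in the same order of groups. The 9 erythroid markers reached at most 1.39 CPM in any library. As group means, 12 NK and gamma delta T cell markers had 134.9 to 335.5 CPM and 5 CD4 T cell markers 30.9 to 57.2 CPM. The part of such cells in the metallothionein levels was not tested.

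Mtf1 (ENSMUSG00000028890, chr4:124802104-124849800, plus strand) encodes the zinc sensor. Its transcript was lowest in ko at 72 h, where those of Mt1 and Mt2 were highest. It had 23.4, 25.1, 23.3 and 24.4 CPM in wild type and 17.6, 19.9, 22.2 and 21.2 CPM in ko at 48 h. At 72 h it had 18.8, 17.8, 18.2 and 18.2 CPM in wild type and 11.5, 12.9, 11.0 and 11.7 CPM in ko. The ko libraries lay below the wild-type libraries at each time without overlap, and the order of the groups was ko 72 h, wild type 72 h, ko 48 h and wild type 48 h, the middle pair overlapping. Mean levels were 24.1 ± 0.872 and 20.2 ± 1.99 CPM at 48 h and 18.3 ± 0.410 and 11.8 ± 0.839 CPM at 72 h (wild type and ko, SD, n = 4 each).

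With time Mtf1 fell by 0.42 on the log2 scale in wild type (SE 0.08, edgeR adjusted p = 3.81e-05) and by 0.71 in ko (SE 0.08, edgeR adjusted p = 1.79e-08). Its ko to wild-type log2 fold change was -0.21 (SE 0.08) at 48 h and -0.51 (SE 0.08) at 72 h, described without a test.

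Slc30a1 (ENSMUSG00000037434, chr1:191906767-191913247, plus strand) encodes ZnT1, the exporter of zinc across the plasma membrane and a classical MTF-1 target, and its levels showed no rise like that of the metallothioneins. Its level was 5.04, 5.76, 5.63 and 4.82 CPM in wild type and 6.94, 6.49, 6.45 and 6.91 CPM in ko at 48 h. At 72 h it was 3.63, 4.54, 4.39 and 6.78 CPM in wild type and 4.92, 4.12, 5.13 and 4.97 CPM in ko. At 48 h every ko library was above every wild-type library, and at 72 h the genotypes overlapped, with wild type replicate 4 high and the other 3 wild-type libraries among the lowest of all. These levels rest on 111 to 251 reads per library.

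Means of Slc30a1 were 5.31 ± 0.457 and 6.70 ± 0.261 CPM at 48 h and 4.84 ± 1.36 and 4.79 ± 0.451 CPM at 72 h (wild type and ko, SD, n = 4 each). The change with time had a log2 fold change of -0.16 (SE 0.15, edgeR adjusted p = 0.385) in wild type and fell by 0.42 in ko (SE 0.15, edgeR adjusted p = 0.0177). Both calls turned on single libraries: without wild type 72 h replicate 4 the wild-type value was -0.38 (edgeR adjusted p = 0.0181), and without ko 72 h replicate 2 the ko value was -0.35 (edgeR adjusted p = 0.0655). Over all alternatives the adjusted p ran from 0.0181 to 0.843 in wild type and from 0.00377 to 0.0655 in ko. The ko to wild-type log2 fold change was 0.37 (SE 0.15) at 48 h and 0.11 (SE 0.16) at 72 h, the latter -0.02 under library totals without scaling and 0.33 without wild type 72 h replicate 4.

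Slc30a1 lies 797822 bases from Batf3 on chromosome 1, so an effect of DNA linked to the ko allele and an effect of Batf3 loss on this gene cannot be told apart here. Of 20 other tested genes within 1 Mb of Batf3, 1 was called higher and 1 lower in ko at 48 h, where 4.41% and 2.66% of all genes were called. At 72 h 3 were called higher and 7 lower, of which Rd3 changed at least 2-fold, where 16.9% and 19.5% of all genes were called. The single lower call at 48 h became 0 without wild type 48 h replicate 2, 2 when either replicate 4 of ko 48 h or replicate 3 of ko 72 h was left out, and 3 in DESeq2.

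Slc39a10 (ENSMUSG00000025986, chr1:46807544-46892852, minus strand) encodes the zinc importer ZIP10, and its transcript fell with time in both genotypes. It had 119.7, 108.5, 101.1 and 114.9 CPM in wild type and 114.6, 99.6, 103.6 and 121.4 CPM in ko at 48 h. Levels at 72 h were 62.2, 63.2, 55.7 and 57.1 CPM in wild type and 69.2, 70.2, 47.4 and 53.4 CPM in ko. The genotypes overlapped at each time, with ko spread on either side of wild type at 72 h, and the times were fully separate.

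Mean levels of Slc39a10 were 111.0 ± 8.05 and 109.8 ± 10 CPM at 48 h and 59.5 ± 3.72 and 60.0 ± 11.4 CPM at 72 h (wild type and ko, SD, n = 4 each). Slc39a10 fell by 0.92 on the log2 scale in wild type (SE 0.10, edgeR adjusted p = 1.66e-08) and by 0.80 in ko (SE 0.10, edgeR adjusted p = 1.14e-07). Its ko to wild-type log2 fold change was 0.02 (SE 0.10) at 48 h, with the opposite sign in 6 of 26 alternatives, and 0.14 (SE 0.10) at 72 h.

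The other zinc transporters were compared as 2 lists, 7 tested of 9 exporters (Slc30a) and 12 tested of 13 importers (Slc39a). With time, 3 exporters rose and 3 fell in wild type, and 4 rose and 2 fell in ko. Over all genes 33.6% rose and 29.9% fell in wild type, and 34.4% rose and 33.6% fell in ko. The exporters had median log2 fold changes of 0.16 and 0.45, against 0.05 and 0.03 over all tested genes. Of the importers 1 rose and 5 fell in wild type and 1 rose and 6 fell in ko, with medians of -0.24 and -0.21. Importers that rose in ko numbered 2 when either replicate 4 of ko 48 h or replicate 3 of ko 72 h was left out, and 0 without the filter on low counts. Slc39a6, whose product ZIP6 pairs with ZIP10, fell with Slc39a10, by 0.91 in wild type (SE 0.07, edgeR adjusted p = 2.86e-11) and 0.97 in ko (SE 0.07, edgeR adjusted p = 6.25e-12). Slc39a7, which releases zinc from the endoplasmic reticulum, fell by 0.76 (SE 0.11) and 0.89 (SE 0.11), with edgeR adjusted p of 2.35e-06 and 1.93e-07. Of the exporters, Slc30a5, which loads the secretory pathway, fell by 0.72 (SE 0.07, edgeR adjusted p = 1.13e-09) in wild type, and Slc30a2, a vesicular exporter, rose by 1.72 (SE 0.19, edgeR adjusted p = 2.62e-08). In ko Slc30a2 rose by 0.80 (SE 0.20, edgeR adjusted p = 0.000864). Slc30a2 levels were low, at 1.14 ± 0.227 and 1.29 ± 0.142 CPM at 48 h and 3.85 ± 0.663 and 2.16 ± 0.261 CPM at 72 h (wild type and ko, SD, n = 4 each). Slc30a3 had larger fold changes, 2.40 in each genotype, at levels of at most 1.01 CPM in any library. Slc39a2, at most 0.600 CPM in any library, fell in ko by 1.81 (SE 0.77, edgeR adjusted p = 0.0394), a call lost in 9 of 24 alternatives with adjusted p of up to 0.234.

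At 48 h edgeR called 0 of these 19 transporters between genotypes, where 4.41% of all genes were called higher and 2.66% lower. Of them 1 had an unadjusted p under 0.05, and DESeq2 and limma-voom called 0. Without the filter on low counts 1 was called higher. At 72 h edgeR called 3 higher and 2 lower, with 16.9% and 19.5% of all genes called. The 2 lower calls became 6 under library totals without scaling, and 1 when any of these libraries was left out alone: replicate 2 of ko 48 h, replicates 3 and 4 of ko 72 h, and replicates 2, 3 and 4 of wild type 72 h. The 3 higher calls became 5 with exon length offsets. Slc30a4, a vesicular and lysosomal exporter, had 62.8, 67.9, 54.1 and 62.6 CPM in wild type and 113.2, 102.1, 86.2 and 80.98 CPM in ko at 72 h, without overlap, and was higher in ko by a log2 fold change of 0.75 (SE 0.10, edgeR adjusted p = 3.95e-06). Slc39a8, the importer ZIP8, was higher in ko by 0.43 (SE 0.08, edgeR adjusted p = 0.000311), at 11.2 ± 0.644 CPM in wild type and 13.7 ± 1.05 CPM in ko (SD, n = 4 each). Slc30a2 was lower in ko, with a log2 fold change of -0.71 (SE 0.18, edgeR adjusted p = 0.00374). Slc30a7 was called higher by 0.21 (SE 0.07, edgeR adjusted p = 0.0200), a call lost under library totals without scaling (adjusted p = 0.388), without the filter on low counts (adjusted p = 0.0756) and without wild type 72 h replicate 3 (adjusted p = 0.0635).

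**Figure D4:**
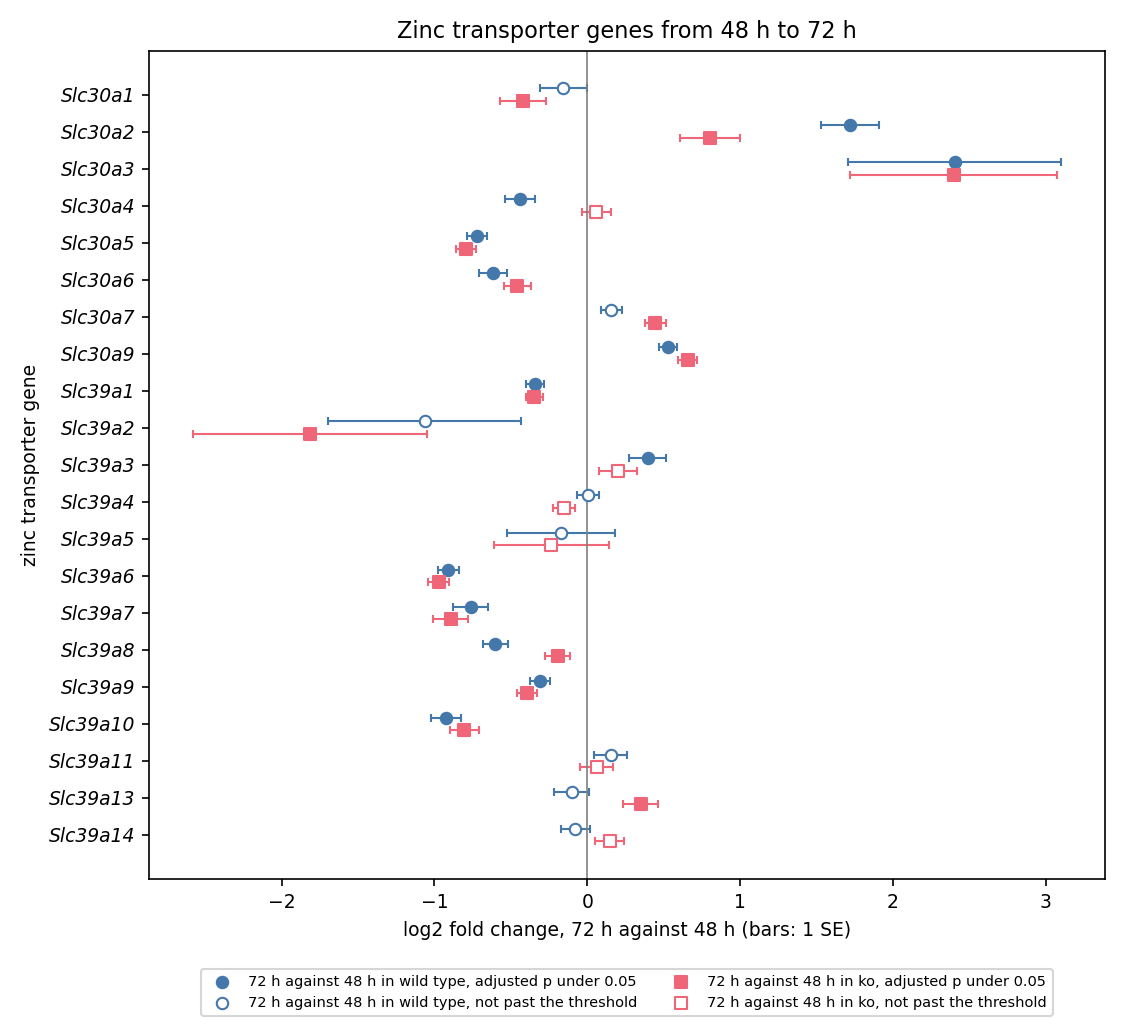
Log2 fold change from 48 h to 72 h (horizontal axis, bars of 1 SE) of the 21 tested zinc transporter genes, Slc30a1 and Slc39a10 included (vertical axis), in wild type (circles) and ko (squares); filled symbols have an edgeR adjusted p under 0.05. Slc39a6, Slc39a7 and Slc39a10 lie at -0.76 or below in both genotypes, and Slc30a2 and Slc30a3 lie above 0.

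Hmox1 (ENSMUSG00000005413, chr8:75093621-75100589, plus strand) encodes the inducible haem oxygenase, which breaks haem down to biliverdin, iron and carbon monoxide. Its level was 9.09, 10.6, 11.5 and 10.7 CPM in wild type and 13.8, 13.0, 12.3 and 14.9 CPM in ko at 48 h. At 72 h it was 10.6, 9.58, 12.6 and 10.5 CPM in wild type and 15.5, 12.4, 10.9 and 11.5 CPM in ko. Every ko library was above every wild-type library at 48 h, whereas at 72 h the groups overlapped and only ko replicate 1 lay above all wild-type libraries. The means were 10.5 ± 0.999 and 13.5 ± 1.11 CPM at 48 h and 10.8 ± 1.29 and 12.6 ± 2.07 CPM at 72 h (wild type and ko, SD, n = 4 each).

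Hmox1 did not pass the test with time: its log2 fold change was 0.02 (SE 0.11, edgeR adjusted p = 0.895) in wild type and -0.04 (SE 0.11, edgeR adjusted p = 0.790) in ko, with the opposite sign in 7 and 3 of 26 alternatives. Its ko to wild-type log2 fold change was 0.40 (SE 0.11) at 48 h and 0.35 (SE 0.11) at 72 h, described without a test. The sum of the macrophage, monocyte and granulocyte markers given above was also higher in ko at both times. At 48 h, however, only 1 of the 2 tested markers had a positive ko to wild-type log2 fold change. The part of such cells in the Hmox1 level was not tested. The difference between the 2 ko to wild-type values was -0.05 (SE 0.16).

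Around Hmox1, 22 NRF2 and BACH1 target genes and regulators had a median log2 fold change with time of -0.57 in wild type and -0.71 in ko. Of these genes 7 rose and 13 fell in wild type, where 33.6% of all genes rose and 29.9% fell, and 6 rose and 15 fell in ko, where 34.4% and 33.6% did. Between genotypes edgeR called 2 higher and 1 lower in ko at 48 h, with 4.41% and 2.66% of all genes called, and 3 higher and 5 lower at 72 h, with 16.9% and 19.5% called. The 48 h counts were unstable: over the alternatives they ran from 0 to 5 higher and from 0 to 4 lower. Both were 0 without wild type 48 h replicate 1. Leaving out replicate 1 or 2 of ko 48 h, or replicate 3 of wild type 48 h, gave 1 higher call. Leaving out replicate 2 of ko 48 h, or replicate 2 or 3 of wild type 48 h, gave 0 lower calls, and leaving out replicate 4 of ko 48 h gave 2. The 5 lower calls at 72 h became 2 with exon length offsets, 9 without both libraries that stand apart and 12 under library totals without scaling. At 72 h Osgin1 was higher by 0.88 (SE 0.22, edgeR adjusted p = 0.00241), and Slc7a11, the cystine importer, had a log2 fold change of -0.61 (SE 0.18, edgeR adjusted p = 0.0109; adjusted p = 0.0699 with exon length offsets). Of 16 haem genes, Blvrb, a biliverdin reductase, was higher in ko at 72 h by 0.62 (SE 0.11, edgeR adjusted p = 0.000132), and the haem exporter Flvcr1 had -0.36 (SE 0.09, edgeR adjusted p = 0.0104) at 48 h and -0.48 (SE 0.09, edgeR adjusted p = 0.000317) at 72 h. Flvcr1 is also among the genes within 1 Mb of Batf3. Over the haem list 0 were called higher and 1 lower at 48 h and 2 higher and 4 lower at 72 h, against the same shares of all genes, and 3 rose and 8 fell with time in wild type and 4 rose and 10 fell in ko. The lower calls became 0 at 48 h without wild type 48 h replicate 2, and at 72 h 2 without ko 72 h replicate 3 and 7 under library totals without scaling.

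Iron released from haem is stored in ferritin. Of 12 iron genes, 0 were called by edgeR at 48 h (2 at an unadjusted p under 0.05, 2 in DESeq2 and 0 in limma-voom). Of all genes 4.41% were called higher and 2.66% lower at that time. At 72 h 3 iron genes were higher and 2 lower in ko, with 16.9% and 19.5% of all genes called. The 3 higher calls numbered 3 in every alternative. The 2 lower calls became 0 with exon length offsets, 1 without wild type 72 h replicate 1, 4 without the filter on low counts or without both libraries that stand apart, and 6 under library totals without scaling. The ferritin subunits Fth1 and Ftl1 were higher in ko at 72 h by 0.51 (SE 0.06, edgeR adjusted p = 1.22e-06) and 0.46 (SE 0.07, edgeR adjusted p = 1.41e-05). Copper is bound by metallothioneins as zinc is. Of 9 copper-handling genes edgeR called 0 at 48 h (0 at an unadjusted p under 0.05, 0 in DESeq2 and limma-voom), with 4.41% of all genes called higher and 2.66% lower. At 72 h it called 1, Sod1, higher in ko by 0.24 (SE 0.06, edgeR adjusted p = 0.00332), a call lost under library totals without scaling (adjusted p = 0.122). Of all genes 16.9% were called higher and 19.5% lower at 72 h. Of 11 glucocorticoid-response genes, 7 rose and 0 fell with time in wild type, and 6 rose and 0 fell in ko. Over all genes 33.6% rose and 29.9% fell in wild type, and 34.4% rose and 33.6% fell in ko. Against wild type, 2 were called higher in ko at 48 h (4.41% of all genes), and 3 higher and 1 lower at 72 h (16.9% and 19.5%). The 3 higher calls at 72 h became 0 under library totals without scaling and 1 without ko 72 h replicate 2, and the lower call became 2 under library totals without scaling. Tsc22d3, a classical glucocorticoid-induced gene, rose with time by 2.39 (SE 0.11, edgeR adjusted p = 5.97e-15) in wild type and 2.05 (SE 0.10, edgeR adjusted p = 2.60e-14) in ko.

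Per kilobase of principal transcript, on the scale that allows levels of different genes to be set side by side, Mt1 stood highest in every group, from 52.5 ± 11.3 CPM per kb in ko at 48 h to 360.4 ± 28.5 in ko at 72 h (SD, n = 4 each). Mt2 ranged from 3.72 ± 1.16 to 70.5 ± 6.34 CPM per kb in the same groups. Slc39a10 lay between 10.8 and 20.2, Hmox1 between 6.67 and 8.61, Mtf1 between 1.54 and 3.15 and Slc30a1 between 0.913 and 1.28 CPM per kb as group means. As group means, Mt2 thus passed from below Slc39a10 and Hmox1 at 48 h to above both at 72 h in each genotype. In wild type at 48 h Mt2 and Hmox1 were close, at 5.80 ± 1.73 and 6.67 ± 0.637 CPM per kb (SD, n = 4 each).

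Profiles over the 16 libraries, taken as log2 CPM centred on each gene's own mean, were compared with those of 8387 genes (8388 for Mt2 and Slc30a1) of mean log2 CPM of at least 3, without those named as clones or pseudogenes. The nearest to Mt1 were Mboat2, Zfp395 and Smox, with root mean square differences of 0.224, 0.260 and 0.270, and to Mt2 Rgs2 and Nrn1, with 0.371 and 0.476. Mt1 was the 21st nearest to Mt2 (0.656). Mt2, itself below that mean level, would stand 298th from Mt1. Nearest to Mtf1 were Slc35g1, Rock2 and Suv39h1 (0.0802, 0.0829 and 0.0837). To Slc39a10 the nearest were Neu1, Pop5 and Gsr (0.0872, 0.0999 and 0.116), to Slc30a1 Sub1, Dscc1 and Tmem167 (0.128, 0.132 and 0.134) and to Hmox1 Lsm10, Slc3a2 and Glipr2 (0.152, 0.163 and 0.163).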

How the data were processed

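Poly-A RNA sequencing was deposited for 16 libraries in 4 groups taken from the labels. The values deposited by the authors are raw read counts per gene, not normalized. STAR 2.7, featureCounts, bcl2fastq 2.2.0 and GRCm38 are named in the submitters' processing notes. The sources used here give no annotation release, strand setting or handling of multiply matching reads. CPM was computed from column sums. A single model of all 16 libraries was fitted with edgeR 4.0.16 (R 4.3.3), after filterByExpr at a minimum count of 10 and TMM scaling. Its two-sided quasi-likelihood test was robust, p-values were adjusted by Benjamini-Hochberg over 15197 genes, and the threshold was 0.05. Each SE is the absolute log2 fold change over the square root of F. The median biological coefficient of variation was 9.68%. Positions and lengths came from GENCODE M21, in which 55154 identifiers were found, and promoters from RefSeq, which held entries for 5 of the 6 genes. DESeq2 1.42.0, limma-voom (limma 3.58.1), other scalings and filters, exon length offsets, a replicate block and leaving out libraries were alternatives. The script was tested on simulated data.

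The members and gene lists were chosen with earlier results of these data known. The named genes were the 6 members, up to 3 called genes of each list and comparison with the largest fold changes, and the 3 nearest profiles per member (1 of those of Mt2 is not reported here); Ccr2, Cd68 and H2-Ab1 were named after their values were seen. Principal transcript lengths, marker sums without the dominant genes, the alternatives for counts of neighbouring genes and the coding sequences were added after seeing the data.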

Additional observations from a re-analysis of the deposited data

Results flagged for a closer look

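Mt2 in ko at 72 h had 1 library apart from the rest of its group: replicate 4 at 31.19 CPM, against 37.2 to 37.9 CPM in the other 3. It was the only such library in 24 sets of 4 libraries (6 genes in 4 groups), and chance alone puts a library that far in about 5% of sets. All 4 ko libraries, this one included, lay above all wild-type libraries at 72 h.

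The effect of genotype differed between 48 h and 72 h, by the interaction in edgeR, for 10 of 90 listed genes tested that are not among the 6. Of these 6 had a positive and 4 a negative value, and over all genes 2.08% had a positive and 3.53% a negative call. Among zinc transporters the interaction log2 fold change was -0.92 for Slc30a2 (adjusted p = 0.0488), 0.50 for Slc30a4 (adjusted p = 0.0323) and 0.41 for Slc39a8 (adjusted p = 0.0391). These calls were fragile: they were lost in 19, 8 and 15 of 25 alternatives, with adjusted p of up to 0.111, 0.0792 and 0.114. Among haem and iron genes it was 0.49 for Slc48a1 (adjusted p = 0.00570), -0.41 for Cpox (adjusted p = 0.0153), 0.47 for Fth1 (adjusted p = 0.00237), 0.39 for Ftl1 (adjusted p = 0.0173) and 0.27 for Ncoa4 (adjusted p = 0.0352). The calls of Slc48a1, Cpox and Fth1 were kept in all 25 alternatives, that of Ftl1 was lost in 1 (without wild type 48 h replicate 4, adjusted p = 0.0518) and that of Ncoa4 in 10 (adjusted p of up to 0.156). It was -0.93 for Slc7a11 (adjusted p = 0.0258; lost in 7 alternatives, adjusted p of up to 0.0621) and -0.38 for Nr3c1, the glucocorticoid receptor (adjusted p = 0.0203; lost in 3, adjusted p of up to 0.0657).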

How the results depend on the processing

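Of 294 values of the 6 genes under alternatives other than leaving out 1 library, 289 kept their direction and side of the threshold or stayed within the spread, and of 480 values without 1 library 478 did. The exceptions were Mtf1 and Slc30a1. The ko to wild-type log2 fold change of Mtf1 at 72 h was -0.38 with exon length offsets and -0.63 under library-size scaling, and its difference between the times was -0.38 under library-size scaling. The change of Slc30a1 with time in ko was -0.33 with exon length offsets (edgeR adjusted p = 0.0611) and ran from -0.45 to -0.35 without 1 library; in wild type it was -0.38 without both libraries that stand apart (edgeR adjusted p = 0.0190) and ran from -0.38 to -0.038 without 1 library. The cause was not tested. With the replicate block, the 72 h ko to wild-type values were 0.88 for Mt1 and 1.02 for Mt2, and the block changed no call among the 6 genes. The numbers share no stated source, and 9 of 24 same-numbered pairs had a correlation of deviations over 0.1.

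Of 882 list counts under other alternatives 77 moved by over 1.5 times, and of 1440 without 1 library 103 did. Zinc transporters lower in ko at 72 h numbered 1 to 6 against 2, and those with an interaction 0 to 3 higher and 0 to 1 lower against 2 and 1. Over all genes at 48 h, 670 were called higher and 405 lower, but 1379 and 1173 without both libraries that stand apart, 302 to 1059 and 171 to 896 without 1 library, and DESeq2 called 835 lower. At 72 h, 2565 were higher and 2961 lower, and 1464 and 4779 under library-size scaling. For the interaction, 316 and 537 became 158 to 407 and 233 to 649 without 1 library and 183 to 574 and 429 to 1231 otherwise. Low counts limit the precision for Mt2 at 48 h, Slc30a1, Mt3, Slc30a2, Slc30a3, Slc39a2 and Osgin1.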
